A study of Arabidopsis thaliana with 36 samples.

Results

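Arabidopsis roots on chloride whose partner root grew on nitrate (Sp.KCl) were compared with roots on chloride in plants without nitrate on either side (C.KCl), 2 hours into the treatment. The comparison takes 6 of the 36 arrays of the series, 3 per group, chosen by sample title alone. Both groups met the same salt, 5 mM KCl, and differed only in what the partner root met. Accession Columbia plants with a pair of main roots were raised on 0.5 mM ammonium succinate, 0.1 mM KNO3 and 3 mM sucrose, kept on ammonium succinate alone on plates parted by a trench, and moved at 12 to 14 days old to segmented plates with 0.3 mM sucrose. Sp.KCl is the KCl side of a split plate whose other side held 5 mM KNO3, and C.KCl is from a plate with 5 mM KCl on both sides. Sp.NO3, the nitrate side of the split plate, and C.NO3, with 5 mM KNO3 on both sides, are given beside them. The same 4 groups were sampled at 8 hours and at 2 days. The series' design text calls the 3 samples of a group biological repeats, and the number of plants behind each is not given in the sources used here.

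The labels contradict each other for the chloride samples. Samples titled as uniform controls carry a treatment entry that places KCl on a single side, and those titled as split carry one that places it on both. Titles and source names were followed. Under the other reading the 2 chloride groups trade names, and every sign of the Sp.KCl against C.KCl comparison turns round.

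Nitrate is both a nutrient and a signal in roots. A root tip in contact with it turns on uptake, reduction and regulatory genes within minutes to hours through local sensing, and a plant also weighs the supply of its separate roots against each other through signals that pass by the shoot. Root-derived CEP peptides and cytokinins are known carriers toward the shoot, and small CC-type glutaredoxins are known carriers back to the roots. Chloride roots of split and uniform plants differ by design only in what the partner root met. Signals and nutrients that reach them from the partner root cannot be told apart here.

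Each array measured 22810 probe sets. The 6 arrays were alike in overall signal, with medians of 205 to 209 in Sp.KCl and 210 to 221 in C.KCl. Of the control probe sets, the 3'-5' index differed between the groups. It is the mean, over 6 pairs of control probe sets for actin, GAPDH and ubiquitin, of the log2 signal at the 3' end of the transcript minus that at the 5' end, and it is larger where labelled RNA is shorter. The index was 0.903, 0.729 and 0.906 in Sp.KCl, against 1.09, 1.18 and 0.969 in C.KCl, so the groups did not overlap. An exact two-sided permutation test gave p = 0.1, the smallest that 3 against 3 arrays allow. The means were 0.846 ± 0.101 in Sp.KCl and 1.08 ± 0.105 in C.KCl (SD, n = 3 each), beside 0.882 in Sp.NO3 and 0.775 in C.NO3. At 8 hours the order was the other way, with 0.887 in Sp.KCl and 0.749 in C.KCl. At 2 days the means were 1.16 in Sp.KCl and 1.17 in C.KCl. Results below are therefore given with the index as a covariate as well. The 25S ribosomal RNA control read 585, 487 and 6513 in Sp.KCl, against 387, 611 and 440 in C.KCl, so Sp.KCl replicate 3 had by far the highest value of the 6. Replicate 3 was high on nitrate too, at 3101 in Sp.NO3 beside 1018 and 2202, and at 3156 in C.NO3 beside 638 and 800, while C.KCl replicate 3 was not. Of the root markers, EXPA7 and EXPA18 of root hairs read 1108 to 1463 and 879 to 1303 in Sp.KCl, against 1041 to 1182 and 855 to 1005 in C.KCl. Of 17 root and 9 shoot markers, 3 and 2 had a named probe set. The shoot marker RCA, a Rubisco activase, read 291 to 691 in Sp.KCl and 283 to 477 in C.KCl, and LHCB4.2, a light-harvesting protein, read 57.5 to 156 in Sp.KCl and 51.9 to 166 in C.KCl. None of these 5 markers passed the test.

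**Figure D1:**
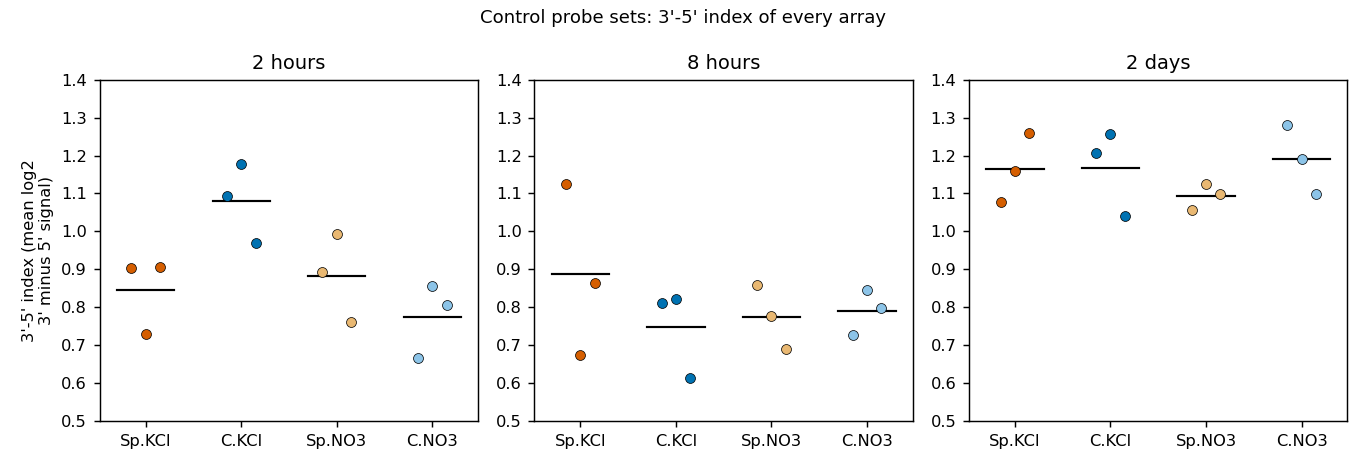
The 3'-5' index (mean log2 difference of 3' and 5' control signals, vertical axis) of every array by group, with a panel for each time; points are arrays and lines are group means. At 2 hours the 3 C.KCl arrays, at 0.969 to 1.18, lie above the 3 Sp.KCl arrays, at 0.729 to 0.906. The axis does not start at 0.

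Few transcripts passed the test between Sp.KCl and C.KCl when replicate numbers were not used to pair the arrays. Of 15922 probe sets tested, 53 (0.333%) passed an adjusted p of 0.05 in limma, 33 of them higher in Sp.KCl (0.207%) and 20 lower (0.126%). At an unadjusted p under 0.05 there were 2068 (13.0%). The called changes were small. Only 6 of the 53 reached a log2 difference of 1 in size. Just 22 of the 53 carry a single listed gene, 14 higher and 8 lower, and all 22 are described here. One other lists several genes and 30 list none. In all 53 the 3 Sp.KCl arrays lay apart from the 3 C.KCl arrays. Over all probe sets tested the 2 groups lay apart in 6.23% with Sp.KCl higher and in 9.19% with Sp.KCl lower. RNA from whole roots cannot tell a lower level per cell from fewer cells of the kind that holds the transcript.

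The count rests on particular arrays. Without Sp.KCl replicate 1, 2 or 3 it was 119, 11 and 14, and without C.KCl replicate 1, 2 or 3 it was 36, 15 and 25. With the replicate number as a block, 308 passed (1.93%), 172 higher (1.08%) and 136 lower (0.854%), all 53 among them. With the index as a covariate 10 passed, 8 higher and 2 lower, all from the 53. All 53 kept their sign in that fit. The 33 that were higher had a median of 0.52 there, beside 0.56 without the covariate. The 20 that were lower had -0.50, beside -0.56. With block and covariate together 43 passed (27 higher, 16 lower), 19 of them from the 53.

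The largest and most stable difference was in rpl16 (ArthCp060), the plastid gene for ribosomal protein L16. Its signals were 1605, 1434 and 1592 in Sp.KCl, against 4909, 5936 and 5088 in C.KCl. All 3 C.KCl arrays stood far above, with no overlap. The difference was -1.77 ± 0.16 on the log2 scale (SE), 3.41-fold lower in Sp.KCl, with an adjusted p of 6.30e-08 in limma. It remained past the threshold, between -1.82 and -1.62, in all 17 alternative settings with the chloride groups as titled, which include leaving out each of the 6 arrays. The index as covariate left -1.66. Roots on nitrate read 1791, 1876 and 1700 in Sp.NO3, and 1436, 1818 and 2674 in C.NO3, close to Sp.KCl.

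LIL3:1 (AT4G17600) encodes a light-harvesting-like membrane protein that takes part in chlorophyll synthesis. Its signals were 74.8, 50.02 and 44.3 in Sp.KCl, against 168, 123 and 134 in C.KCl. The gene was dim in both groups, and every C.KCl array was above every Sp.KCl array. The log2 difference was -1.14 ± 0.19 (adjusted p = 0.00314), and -1.21 with the index as a covariate. It passed without each of the arrays in turn.

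Among the genes that rose in Sp.KCl, AT1G16560, which encodes a Per1-like membrane protein, had the smallest p. Its signals were 892, 1057 and 1161 in Sp.KCl, against 527, 719 and 648 in C.KCl. No C.KCl array reached the lowest Sp.KCl array. The gene was 1.63-fold higher, at 0.70 ± 0.10 on the log2 scale (adjusted p = 0.000437).

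FRO1 (AT5G67590, FROSTBITE1) encodes a subunit of mitochondrial complex I. It read 3512, 3452 and 3570 in Sp.KCl, against 2579, 2521 and 2632 in C.KCl. This is a narrow spread within each group, and the difference was 0.44 ± 0.07 (adjusted p = 0.00269), 1.36-fold higher in Sp.KCl. AT2G34590, a plastid pyruvate dehydrogenase E1 beta subunit that supplies acetyl-CoA for fatty acids, read 1932, 2228 and 2553 in Sp.KCl, against 1429, 1384 and 1507 in C.KCl. It rose by 0.62 ± 0.10 (adjusted p = 0.00213). AT3G55420 read 451, 500 and 533 in Sp.KCl, against 298, 298 and 311 in C.KCl, a difference of 0.68 ± 0.12. AT4G21720 read 205, 219 and 284 in Sp.KCl, against 152, 121 and 150 in C.KCl, a difference of 0.67 ± 0.11. With rpl16 and LIL3:1, these 5 genes are the 7 named genes that also passed with the index as a covariate and without each array in turn.

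**Figure D2:**
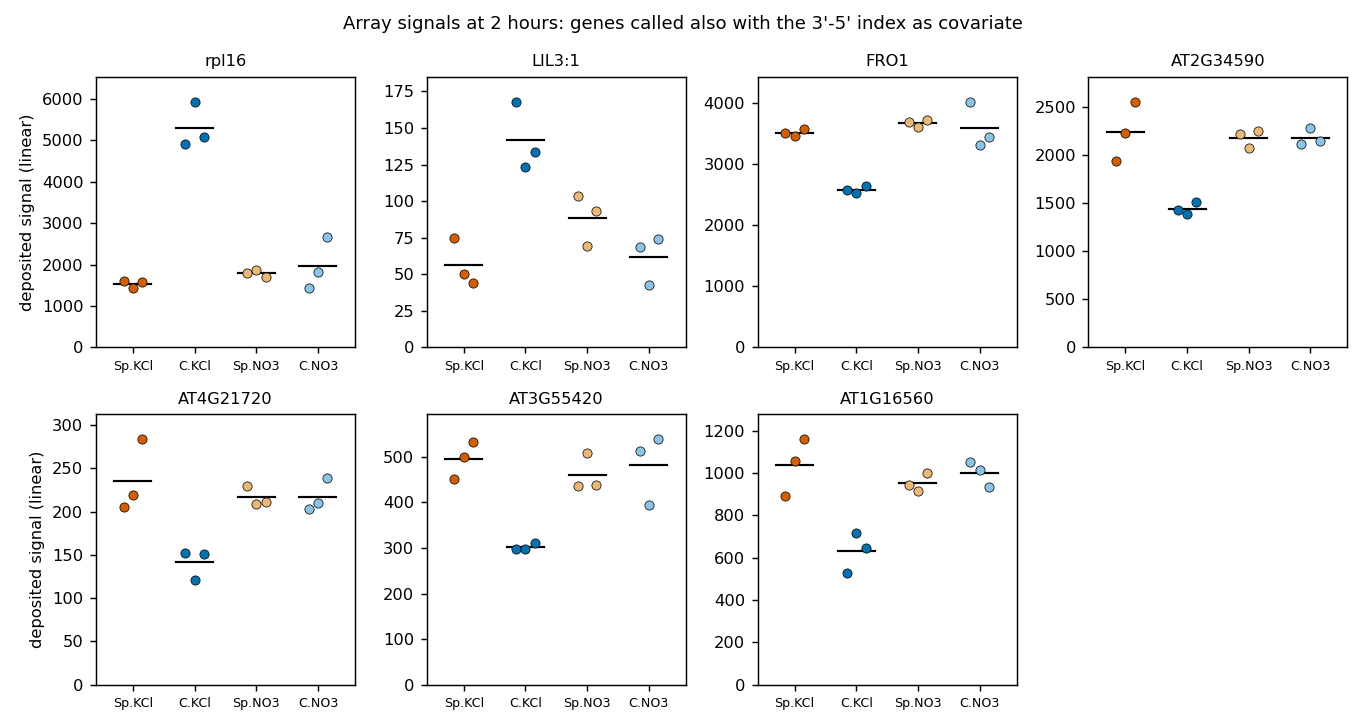
Deposited signal (linear, arbitrary units, axes from 0) of each array at 2 hours in Sp.KCl, C.KCl, Sp.NO3 and C.NO3 for the 7 named genes that passed with and without the index as a covariate; points are arrays, lines are means. In each panel the 3 C.KCl arrays stand apart from the 3 Sp.KCl arrays, above them for rpl16 and LIL3:1 and below them for the other 5.

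The other 9 genes that rose lost the call with the index as a covariate. AT3G45090 showed the largest rise and was dim, at 104, 118 and 201 in Sp.KCl, against 23.4, 74.8 and 47.7 in C.KCl. Its log2 difference of 1.32 ± 0.29 (2.49-fold) was 1.45 with the covariate, with an adjusted p of 0.0882. AT1G05270, of the TraB family, read 218, 302 and 382 in Sp.KCl, against 108, 155 and 175 in C.KCl. It rose 1.94-fold, by 0.96 ± 0.18 (adjusted p = 0.00793), and by 0.74 with the covariate (adjusted p = 0.131).

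EXPA9 (AT5G02260) encodes an expansin, a protein that loosens cell walls during growth. It read 1310, 1490 and 1393 in Sp.KCl, against 1008, 1009 and 863 in C.KCl, without overlap, and rose by 0.54 ± 0.12 (adjusted p = 0.0359). It was the only expansin of 14 tested that passed. AT4G15520, an RNA methyltransferase of the SpoU type, rose by 0.63 ± 0.13. AT3G02820, a zinc knuckle protein, rose by 0.63 ± 0.14 and lost its call without any one of the 6 arrays. AT5G25080, of the Sas10/Utp3/C1D family of RNA processing proteins, rose by 0.51 ± 0.10. AT3G12030, AT2G45060 and AT5G47420 rose by 0.56 ± 0.10, 0.51 ± 0.12 and 0.44 ± 0.10.

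The other 6 genes that fell also lost the call with the covariate. AT2G28620, a kinesin-5 motor of the mitotic spindle, read 214, 172 and 132 in Sp.KCl, against 318, 340 and 276 in C.KCl. It fell by 0.81 on the log2 scale (SE 0.19, adjusted p = 0.0463). UGT80B1, a sterol glucosyltransferase, read 176, 167 and 163 in Sp.KCl, against 237, 261 and 268 in C.KCl, a difference of -0.55 ± 0.12. AT3G52640, the plant nicastrin and thus a gamma-secretase subunit, read 669, 512 and 475 in Sp.KCl, against 801, 792 and 791 in C.KCl. The spread in C.KCl was small there, and the difference was -0.53 ± 0.10 (adjusted p = 0.0112). AT3G52460 differed by -0.56 ± 0.12, AT4G28550, with a Rab GTPase-activating domain, by -0.56 ± 0.12, and AT1G33230 by -0.48 ± 0.10.

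In all 53 probe sets it was C.KCl that stood at the end of the 4 groups of 2 hours. Its mean was the lowest of the 4 in all 33 that were higher in Sp.KCl, and the highest in all 20 that were lower. In 29 of the 33 all 9 other arrays lay above the 3 C.KCl arrays, and in 18 of the 20 all 9 lay below. The 53 were chosen for a difference between Sp.KCl and C.KCl, and that choice partly sets these counts. The same counts over all probe sets tested were not taken, so no conclusion is drawn from them. None of the 53 passed in Sp.KCl against C.NO3 in limma. At an unadjusted p under 0.05 in that comparison 1 did, and by the test in the series' design text, an analysis of variance followed by Tukey's test, 0 did. Set against C.NO3, C.KCl differed in 325 probe sets (2.04%) and Sp.KCl in 26 (0.163%). These comparisons share arrays with each other, and the C.KCl arrays are the ones with the higher 3'-5' index.

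Plastid-encoded genes were mostly lower in Sp.KCl than in C.KCl, but only rpl16 passed. Of 69 with a probe set 59 were tested. Their median difference was -0.26, against -0.02 over all tested probe sets, and 13 of the 59 were positive. In 18 the Sp.KCl arrays lay wholly below the C.KCl arrays, or 30.5% against the background of 9.19%, and in 3 wholly above. With the replicate block 10 passed lower and 1 higher, and with the index as a covariate the median was -0.29. At 8 hours, where nothing passed, the median was -0.26, and at 2 days it was 0.02. In Sp.KCl against C.NO3 at 2 hours the median of the plastid genes was 0.03. Their summed signal was 107624, 97788 and 111119 in Sp.KCl, against 123101, 130823 and 122199 in C.KCl. All 3 Sp.KCl sums were lower, also with rpl16 left out, at 106019, 96354 and 109526 in Sp.KCl and 118192, 124887 and 117111 in C.KCl. With rpl16 the sums were 117443, 112058 and 102848 in Sp.NO3, and 93270.5, 107300 and 111635 in C.NO3. Every C.KCl sum with rpl16 was thus above every sum of the other groups at 2 hours.

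Plastid genes named next were picked out after their values were seen. With the block, rpl36, a ribosomal protein gene, passed at -0.75 ± 0.21, rpoA, the polymerase alpha subunit, at -0.78 ± 0.24, and the ribosomal protein genes rps19 and rps3 at -0.49 ± 0.15 and -0.45 ± 0.13 (log2 difference and SE, both without the block). The photosystem genes psbZ, psbJ and psbI and the NADH dehydrogenase-like gene ndhC passed as well, at -0.47 ± 0.12, -0.50 ± 0.16, -0.38 ± 0.12 and -0.48 ± 0.12. Other ribosomal protein genes did not pass with the block: rpl14 was at -0.47 ± 0.23, rpl22 at -0.11 ± 0.16, rps4 at 0.12 ± 0.21 and rpl20 at 0.19 ± 0.20. The photosystem I reaction centre gene psaB was at -0.92 ± 0.22 (adjusted p = 0.0530 without the block, 0.00939 with it). Its partner psaA read 193, 201 and 617 in Sp.KCl, against 589, 630 and 734 in C.KCl, which overlap (-1.12 ± 0.45, adjusted p = 0.283). Replicate 3 was likewise high for psaA in Sp.NO3, at 570 beside 285 and 237, and in C.NO3, at 597 beside 198 and 241. A small photosystem I subunit went the other way: psaJ read 3438, 3643 and 2262 in Sp.KCl, against 1609, 1373 and 1688 in C.KCl. It was 0.97 ± 0.29 higher, at an adjusted p of 0.139 without the block and 0.0261 with it, and 0.52 higher with the index as a covariate. Of 9 nuclear photosynthesis genes tested, LIL3:1 alone passed. The summed signal of the 11 with a probe set was 1847 to 3100 in Sp.KCl and 1964 to 2816 in C.KCl. Of 11 mitochondrial genome probe sets tested none passed. Their reads cannot be told apart from those of the near-identical nuclear copy, and their median was -0.11.

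Genes that respond to nitrate itself gave no call in limma without the block for the supply of the partner root. They were taken from the arrays of 8 hours. Those give no group mean to the comparison at 2 hours, but share in its filter and its estimate of spread. At 8 hours 41 probe sets were higher in C.NO3 than in C.KCl (0.258%) and 21 were lower (0.132%). Of the 41 that nitrate raised, none passed in Sp.KCl against C.KCl at 2 hours in limma. At an unadjusted p under 0.05 just 1 did, and 0 did with the block or by the Tukey test. Their median difference was -0.01, and they ranged from -0.39 to 0.25, with 20 of 41 positive. None had groups that lay apart. The same 41 stood at a median of -0.80 in Sp.KCl against C.NO3, where 15 passed, and at -0.61 against Sp.NO3, where 13 passed (over all probe sets 0.144%). The spread of these genes between Sp.KCl and C.KCl was thus narrow beside their difference from roots in contact with nitrate. The 21 that nitrate lowered had a median of -0.12 in Sp.KCl against C.KCl, with 6 of 21 positive. In 6 of them (28.6%) the Sp.KCl arrays lay wholly below the C.KCl arrays, against the background of 9.19%, and in 0 wholly above. None passed in limma, 3 did at an unadjusted p under 0.05 and 0 by the Tukey test. Larger sets from 2 days, 209 probe sets higher on nitrate and 193 lower, gave no call in limma either. With the block 2 and 2 passed, beside 1.93% of all tested, and by the Tukey test 2 and 1. At an unadjusted p under 0.05 there were 19 and 17, beside 13.0% of all. Sp.KCl lay wholly above C.KCl in 10 and 8 (6.23% of all), and wholly below in 18 and 18 (9.19%).

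Sp.KCl was also set against C.NO3. All 26 probe sets that passed were lower in Sp.KCl, and 0 were higher; with the block 53 were lower and 2 higher (0.345% in all). At an unadjusted p under 0.05 there were 409. Without Sp.KCl replicate 3 the count was 17. Of the 26, 19 also passed lower against Sp.NO3 (0.138% over all). Over all probe sets 23 passed against Sp.NO3 in either direction, and 42 with the block. The 26 had a median difference of -0.93 against C.NO3 and -0.04 against C.KCl. None of the 26 passed against C.KCl, where 3 had an unadjusted p under 0.05 and 0 passed by the Tukey test. The 26 were chosen on the same Sp.KCl arrays that enter both further comparisons, so neither is a separate check. The 5 with a single gene and the smallest p are given with the 95% interval of the Sp.KCl minus C.KCl difference. Since they were chosen for low Sp.KCl values, that difference can be biased downward.

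AT5G62720, a plastid membrane protein that carries nitrite, read 186, 182 and 258 in Sp.KCl, against 563, 640 and 663 in C.NO3. The groups lay far apart, 2.87-fold lower in Sp.KCl (-1.52 ± 0.15, adjusted p = 1.77e-07). In C.KCl it read 157, 192 and 236, and the Sp.KCl minus C.KCl difference was 0.09 (-0.22 to 0.40). AT3G25790 encodes HHO1, a repressor of the GARP family that nitrate induces. It read 103, 108 and 98.4 in Sp.KCl, against 240, 250 and 189 in C.NO3, 2.02-fold lower (-1.01 ± 0.17). In C.KCl it read 112, 130 and 106, for a difference of -0.14 (-0.49 to 0.21).

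PGM, a phosphoglycerate mutase-like gene (AT1G78050), read 527, 456 and 443 in Sp.KCl, against 950, 761 and 841 in C.NO3. Its Sp.KCl minus C.KCl difference was 0.07 (-0.20 to 0.34). AT5G19970 read 208, 344 and 284 in Sp.KCl, against 510, 519 and 513 in C.NO3. It differed from C.KCl by -0.07 (-0.36 to 0.22). AT5G10210 read 67.1, 119 and 194 in Sp.KCl, against 502, 346 and 311 in C.NO3, and differed from C.KCl by 0.13 (-0.38 to 0.63). The ends of each interval were smaller in size than the estimated fall of the same gene against C.NO3. Both values are affected by the choice of these genes on the Sp.KCl arrays. The intervals therefore do not bound a response to the partner root.

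**Figure D3:**
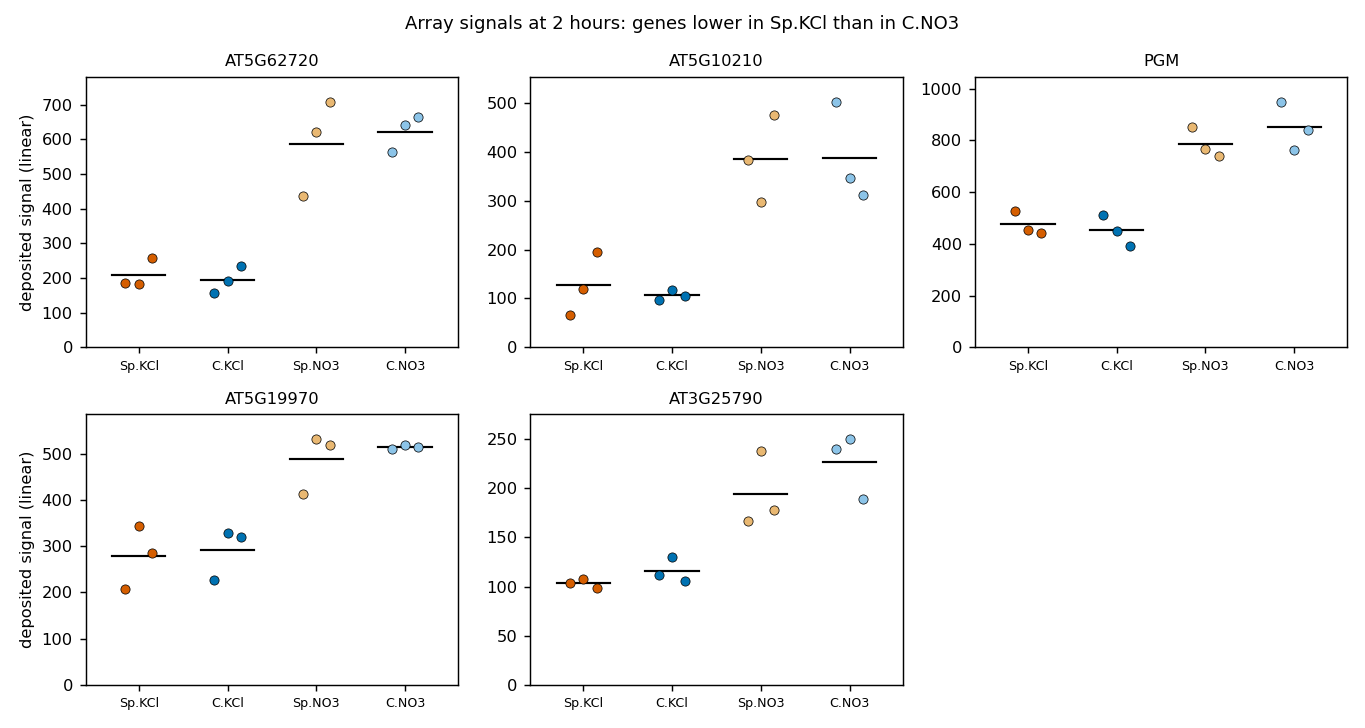
Deposited signal (linear, arbitrary units, axes from 0) of each array at 2 hours in Sp.KCl, C.KCl, Sp.NO3 and C.NO3 for the 5 named genes of smallest p in Sp.KCl against C.NO3; points are arrays, lines are means. In every panel the arrays of the 2 chloride groups overlap each other and lie below those of both nitrate groups.

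Lists of nitrate signalling and transport genes held no call. The 5 nitrate response regulators tested had a median of 0.06 and none passed. HHO2 (AT1G68670) stood at 666 ± 21.0 in Sp.KCl and 598 ± 27.3 in C.KCl (SD, n = 3 each), with a log2 difference of 0.15 ± 0.13. Among 12 nitrate and peptide transporters the median was -0.08, and 2 were lower at an unadjusted p under 0.05. The strongest of these, AT3G21670, read 361, 157 and 300 in Sp.KCl, against 420, 386 and 433 in C.KCl. Its difference was -0.64 ± 0.25, at an adjusted p of 0.250, or 0.0505 with the block. The glucosinolate carriers GTR1 and GTR2 of the same family were at -0.28 ± 0.22 and 0.05 ± 0.16. Reductant supply for nitrite reduction was represented by the 6-phosphogluconate dehydrogenases AT5G41670 (-0.05 ± 0.14) and AT1G64190 (0.02 ± 0.10).

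Few genes of the known long-distance carriers could be named among the probe sets tested, and none of those passed. Others can be among the 6804 tested probe sets that list no gene. Matched by symbol, no CEP peptide, CEP receptor or cytokinin synthesis gene had a tested probe set that names it. Of 9 glutaredoxins the median was -0.02. AT1G06830 and AT2G47880, the CC-type proteins CEPD1 and CEPD2 that move from shoot to root, were at -0.52 ± 0.39 and -0.02 ± 0.29. AT1G06830 was very dim, at 20.1 ± 12.6 in Sp.KCl and 34.5 ± 12.8 in C.KCl (SD, n = 3 each). In the cytokinin list, RR16, a type-A response regulator that cytokinin induces, read 74.8, 98.6 and 72.7 in Sp.KCl, against 193, 130 and 119 in C.KCl. The groups lay apart, but the difference of -0.72 ± 0.24 had an adjusted p of 0.185, or 0.0751 with the block. The other, ARR15, was at 0.09 ± 0.22. CLE27, CLE41 and CLE44, of the CLE peptides, were at -0.36 ± 0.31, -0.19 ± 0.15 and 0.07 ± 0.27. LBD16, which promotes lateral root founding downstream of auxin, was at 0.50 ± 0.23 (adjusted p = 0.344).

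Growth and cell wall lists held few calls. Among 37 UDP-glycosyltransferases UGT80B1 passed, and with the block IAGLU, which conjugates auxin, passed lower too (-0.47 ± 0.15, adjusted p = 0.153 without the block and 0.0346 with it). Of 5 probe sets in the list of extensins and proline-rich proteins none passed and 2 were lower at an unadjusted p under 0.05. PRP39 and PRP39-2 are in that list by name only. HRGP1 averaged 1382 ± 56.7 in Sp.KCl and 2446 ± 379 in C.KCl (SD, n = 3 each), a difference of -0.81 ± 0.32 (adjusted p = 0.264), or -0.31 given the index as covariate (adjusted p = 0.760). Its probe set can share signal with related genes. Of the 6 cell cycle genes, CDC27a of the anaphase-promoting complex was at 0.64 ± 0.16 (adjusted p = 0.0710, 0.0273 with the block). Of 27 proteasome and ubiquitin genes the conjugating enzyme UBC27 was at 0.32 ± 0.10 (adjusted p = 0.163, 0.0417 with the block). In 26 of the 30 lists with a tested member, holding 173 probe sets, limma called none. Of those 173, 10 were higher and 10 lower at an unadjusted p under 0.05 (11.6%, against 13.0% of all probe sets tested), and 1 passed by the Tukey test.

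None of the 53 calls of 2 hours recurred at 8 hours. No probe set passed between Sp.KCl and C.KCl then in limma, where 327 had an unadjusted p under 0.05 and 5 passed by the Tukey test. The 33 that were higher at 2 hours had a median of 0.56 at 2 hours, -0.02 at 8 hours, and 0.05 after 2 days. The 20 that were lower had -0.56, -0.04 and -0.11. Signs were the same as at 2 hours in 28 of the 53 at 8 hours and in 33 at 2 days. None passed at the later times in limma without the block. At an unadjusted p under 0.05, 4 did at 8 hours and 8 at 2 days, and by the Tukey test 0 and 1 did. At 2 days 148 other probe sets passed (0.930%, 88 higher and 60 lower). With the block 404 passed at 2 days, 237 higher and 167 lower, and 0 at 8 hours.

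**Figure D4:**
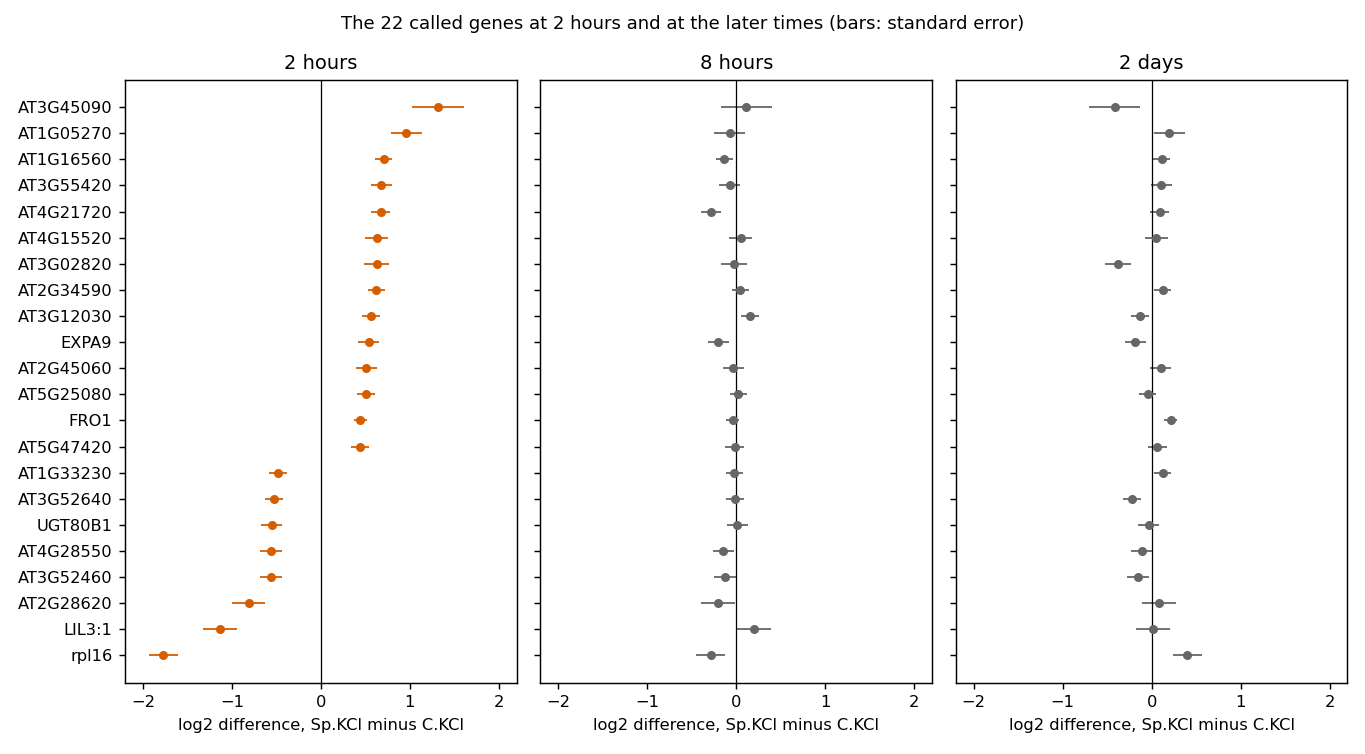
Log2 difference of Sp.KCl minus C.KCl (horizontal axis) for the 22 named genes, with a panel for each time; points are limma estimates, bars standard errors. The genes were chosen by the 2 hour values, which run from -1.77 for rpl16 to 1.32 for AT3G45090. None passed the test without the block at 8 hours or 2 days.

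Whether the difference itself changed with time was tested by interaction. Between 2 and 8 hours 3 probe sets passed (0.0188%), rpl16, AT4G21720 and AT1G16560, and 11 with the block (0.0691%). For rpl16 the 2 hour difference was lower by 1.48 on the log2 scale. AT4G21720 and AT1G16560 were higher by 0.96 and 0.84. With the index as a covariate 0 passed, and 741 had an unadjusted p under 0.05. The count was 10 without Sp.KCl replicate 1 of 2 hours and 5 without C.KCl replicate 1 of 2 hours. It was 2 without Sp.KCl replicate 3 of 2 hours or Sp.KCl replicate 1 of 8 hours. Between 2 hours and 2 days 44 passed (0.276%), and 214 with the block (1.34%). The block also pairs the arrays of 2 days, where same-numbered Sp.KCl and C.KCl arrays did not deviate together. With the index as a covariate 22 passed. Without Sp.KCl replicate 1, 2 or 3 of 2 hours the count was 58, 21 and 28, and without C.KCl replicate 1 or 3 of 2 hours it was 23 and 18. It was 28 without Sp.KCl replicate 2 of 2 days, and 19 and 20 without C.KCl replicate 1 or 2 of 2 days. Most genes named there moved at 2 days rather than at 2 hours: AT2G43535, a defensin-like peptide, was at -0.18 ± 0.17 at 2 hours and 1.26 ± 0.17 at 2 days. MSRB5, a methionine sulfoxide reductase, was at -0.002 ± 0.11 at 2 hours and 0.86 ± 0.11 at 2 days. AT5G26280 was at -0.12 ± 0.19 and 1.23 ± 0.19. AT1G01490, a heavy-metal-associated protein, changed sign, at 0.46 ± 0.11 at 2 hours and -0.57 ± 0.11 at 2 days. Its adjusted p at 2 hours was 0.0530, or 0.0168 with the block.

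The split plate was then compared between media. On nitrate, Sp.NO3 against C.NO3 gave 0 calls at 2 hours in limma. There 249 had an unadjusted p under 0.05 and 4 passed by the Tukey test. The plate effect differed between media in 3 probe sets (0.0188%), rpl16 (-1.67 ± 0.23), LIL3:1 (-1.58 ± 0.27) and AT1G16560 (0.77 ± 0.14), and in 10 with the block (0.0628%). With the index as a covariate 2 passed, rpl16 (adjusted p = 0.0306) and LIL3:1 (adjusted p = 0.0479), while AT1G16560 lost its call (adjusted p = 0.413). Without Sp.KCl replicate 1 the count was 12, without Sp.NO3 replicate 3 it was 5, and without C.NO3 replicate 3 it was 14. It was 1 without Sp.KCl replicate 2, Sp.KCl replicate 3, C.KCl replicate 1, Sp.NO3 replicate 1 or C.NO3 replicate 2. LIL3:1 read 103, 69.6 and 93.5 in Sp.NO3, against 68.6, 42.6 and 74.1 in C.NO3, so it was not lower there.

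Long genes leaned lower in Sp.KCl. By the genomic span of the gene in the RefSeq annotation, probe sets with a single nuclear gene were ranked and split into 4 bins of 2171 to 2180. The median Sp.KCl minus C.KCl difference was 0.04, 0.03, -0.02 and -0.11 from the shortest to the longest bin. With the index as a covariate it was 0.01, 0.00, -0.02 and -0.09, and at 8 hours 0.05, 0.01, -0.01 and -0.04. On nitrate plates, Sp.NO3 minus C.NO3 ran from -0.03 to 0.02. Without the block, 3, 6, 3 and 2 of the called genes were higher and 1, 1, 1 and 4 lower, from short to long. With the block 33, 30, 18 and 9 were higher, fewest in the longest bin, and 6, 9, 7 and 45 lower, where only the longest bin stood out. The nuclear genes named as lower (7 of the 8, without plastid rpl16) had a median span of 3717 bases, those that rose 2256 and all tested 2342.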

How the data were processed

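Total RNA from roots was hybridised to 36 single-colour Affymetrix arrays. The deposited intensity values are linear MAS5 signals. The tool, MAS5, comes from the submitters' processing notes, which give no version. The values show that the authors had scaled each array to a mean of 500 after trimming 2% at either end. What else was done upstream is not given in the sources used here, and no detection calls or scanner files were used. The 3 arrays per group limit the precision.

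The 64 control probe sets were set aside. log2(signal + 16) of the deposited intensity was taken, and probe sets under the 30th percentile of the mean (a signal of 68.9) were left out, leaving 15922 of 22746. The added 16 understates changes of dim genes. Group means of all 36 arrays (12 groups, 24 residual degrees of freedom, median prior 7.09) were fitted with limma 3.58.1 in R 4.3.3 (eBayes with trend, two-sided, Benjamini-Hochberg, threshold 0.05) and tested on simulated data. In total 13513 probe sets list 1 gene, 503 several and 8730 none. Gene names come from the platform annotation, updated through RefSeq (TAIR10.1).

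The members and lists were chosen with earlier results of these data known, and list patterns were adapted to the names in the annotation. Named genes are the up to 15 higher and 15 lower called probe sets of largest difference with 1 listed gene, groups that do not overlap and a mean signal of at least 100; per list, up to 4 called and 2 others of largest difference; and the 5 of smallest p per further comparison. The lists match symbols, loci or the chromosome. Nitrate regulators, assimilation genes, glutaredoxins, transporters and cytokinin genes were added by locus. AQI, PDF1A and PDF1B entered the aquaporin and pathogenesis-related lists by name only. So did PRP39 and PRP39-2 in the list of extensins and proline-rich proteins.

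Same-numbered Sp.KCl and C.KCl arrays at 2 hours deviated together (correlations 0.471, 0.160 and 0.320 of deviations from group means, all over 0.1), as did Sp.KCl and C.NO3 (0.464, 0.366, 0.486). At 8 hours Sp.KCl and C.KCl had 0.174, 0.188 and 0.297. At 2 days they had -0.0009, 0.03 and -0.05, all under 0.1. The numbers were therefore taken to pair the arrays of 2 and 8 hours, but not those of 2 days. The main fit does not use this pairing, and the named genes and most counts come from it. Values with the replicate block, fitted at all times, are given beside many of these counts, but not for every call. Alternatives were the added number, the filter, quantile normalization, the block, the index as a covariate, fewer arrays in the fit, each array left out, the design text's test (ANOVA p 0.001, q 0.2, Tukey p 0.05) and exchanged chloride groups. The block with the covariate, and arrays left out of the interactions, were added after seeing the data. The nitrate-responsive sets of 8 hours and 2 days, the gene-span bins and the 25S reading were likewise looked at after seeing the data. Promoter sequences were not analysed here.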

Additional observations from a re-analysis of the deposited data

Results flagged for a closer look

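The difference between Sp.KCl and C.KCl changed with time or medium by the test of that change in limma. Between 2 and 8 hours 3 probe sets passed: rpl16 at -1.48, AT4G21720 at 0.96 and AT1G16560 at 0.84 on the log2 scale. Between 2 hours and 2 days 44 passed, and those of smallest p with 1 listed gene were rpl16 at -2.17, AT1G01490 at 1.03, AT2G43535 at -1.44, MSRB5 at -0.86 and AT5G26280 at -1.35. Between chloride and nitrate at 2 hours 3 passed: rpl16 at -1.67, LIL3:1 at -1.58 and AT1G16560 at 0.77, of which AT1G16560 lost the call with the index as a covariate (adjusted p = 0.413). The 3 calls between 2 and 8 hours were all lost then. These comparisons all share the C.KCl arrays of 2 hours. The 25S ribosomal RNA control probe set, which no comparison uses, read 6513 in Sp.KCl replicate 3, against 387 to 611 in the C.KCl arrays. It was high in replicate 3 of Sp.NO3 (3101) and of C.NO3 (3156) as well. Its part in the results was not tested beyond leaving that array out.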

How the results depend on the processing

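All 22 named genes kept their direction, and rpl16 its call, under every alternative run except the exchange of the chloride groups, which turns every sign (53 calls, 20 higher and 33 lower). Sp.KCl against C.KCl gave 53 calls, also with 1 added to the signal, and 49 with 64 added. The count was 31 without the filter, 308 with the replicate block, 10 with the index as a covariate, 43 with both, 160 by the design text's test, and 1 (rpl16) with only the 12 arrays of 2 hours or only the 6 compared, which leave fewer degrees of freedom. Quantile normalization gave 78, 53 higher and 25 lower. Leaving out 1 array gave 11 to 119 calls. Sp.KCl against C.NO3 (26) gave 55 with the replicate block, 52 by the design text's test, 14 with the 12 arrays, 2 with the 6, and 17 to 26 with 1 array left out; the chloride groups exchanged gave 325. For 2 against 8 hours (3) the counts were 11 with the block, 0 with the index and 2 to 10 with 1 array left out. For 2 hours against 2 days (44) they were 214, 22 and 18 to 58. For medium by plate (3) they were 10, 2 and 1 to 14. The block ended no call of a named gene. Other causes were not tested. The number of arrays limits all of these, and signals near the filter have larger errors on the log2 scale.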
